A study of Mus musculus with 8 samples.

Results

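The Tbx2-Tbx4 and Tbx3-Tbx5 loci hold 4 T-box genes in 2 linked pairs, and their H3K27me3 islands were described in mouse liver after TCPOBOP or vehicle. The members were chosen by position, as approximate windows on the mm9 build. The Tbx2-Tbx4 locus was chr11:85520001-85880000 and the Tbx3-Tbx5 locus chr5:119990001-120460000. The outer 100 kb on each side of a locus are its flanks, which leaves a window of 160 kb for Tbx2 and Tbx4 and of 270 kb for Tbx3 and Tbx5. No mm9 gene annotation was used to set the window edges, so exons, introns and promoters were not placed on the islands. Of 107140 islands in the 8 deposited lists, 62 overlapped either window, 24 at Tbx2-Tbx4 and 38 at Tbx3-Tbx5.

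H3K27me3 is the histone mark that Polycomb repressive complex 2 places over developmental genes that a cell type does not use. Chromatin immunoprecipitation sequencing (ChIP-seq) for this mark was made from livers taken 3 h after injection. The animals were male mice of 7 weeks from the outbred CD-1 stock, and they received 3 mg/kg TCPOBOP, an agonist of the nuclear receptor CAR, or vehicle, which was 1% DMSO in corn oil. Each treatment had 3 livers with a library from fragments of 600 to 1100 bp, digested to 500 bp. Replicate 1 of each treatment also had a library from fragments over 1100 bp, digested to 200 bp, made from the same ChIP sample. Chromatin came from individual livers, so replicates were separate animals, each sample was whole liver with all its cell types, and no sample was untreated.

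T-box genes encode transcription factors that share a DNA-binding T-box domain. Tbx2 and Tbx3 are paralogs known mainly as repressors, with roles in the heart's conduction system and outflow region, in limb and in mammary development. Tbx4 and Tbx5 are paralogs known as activators: Tbx4 acts in hindlimb and lung, Tbx5 in forelimb and heart. Tbx2-Tbx4 and Tbx3-Tbx5 are held to descend from 1 ancestral linked pair. In the GRCm38.p6 gene order, 0 other protein-coding genes lie between Tbx2 and Tbx4 or between Tbx3 and Tbx5. There the Tbx2-Tbx4 pair is flanked by Bcas3 and Brip1, and the Tbx3-Tbx5 pair by Med13l and Rbm19.

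An island is a run of windows with more reads than a modelled background, and its score is the authors' own value within a list. The lists hold no read counts, so depth is unknown. The 6 lists of 600 to 1100 bp held 6295 to 14748 islands over 174 to 340 Mb, and the 2 lists of over 1100 bp held 17577 and 22077 islands over 654 and 676 Mb. For reference, a window over Alb and Afp, genes of the hepatocyte, was 0% covered in all 8 lists. The median 160 kb stretch of the autosomes was also 0% covered in each of the 6 lists of 600 to 1100 bp. The Alb and Afp value therefore cannot check the tissue label. A window over the HoxA cluster, a classical Polycomb target, was 100% covered in all 8. Both were approximate mm9 windows.

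CpG-rich promoters are a known feature of Polycomb targets, so a RefSeq promoter is shown for each locus, from 250 bases before to 50 after a gene start. Of the 4 members, 1 had an entry in the RefSeq promoter table, Tbx4. For the other locus the entry of Tbx3os1 is shown, a long non-coding RNA gene whose span overlaps that of Tbx3. Both are from GRCm38.p6, the first at chr11:85896515-85896814 on the plus strand and the second at chr5:119671459-119671758 on the minus strand, and neither was placed on the mm9 islands. Capitals mark CG dinucleotides.
Tbx4: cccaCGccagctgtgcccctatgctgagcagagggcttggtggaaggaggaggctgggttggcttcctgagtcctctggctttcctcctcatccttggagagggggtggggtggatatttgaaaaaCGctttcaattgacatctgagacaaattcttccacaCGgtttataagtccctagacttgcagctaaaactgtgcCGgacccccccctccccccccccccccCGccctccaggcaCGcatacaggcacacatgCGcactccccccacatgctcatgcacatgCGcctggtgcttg
Tbx3os1: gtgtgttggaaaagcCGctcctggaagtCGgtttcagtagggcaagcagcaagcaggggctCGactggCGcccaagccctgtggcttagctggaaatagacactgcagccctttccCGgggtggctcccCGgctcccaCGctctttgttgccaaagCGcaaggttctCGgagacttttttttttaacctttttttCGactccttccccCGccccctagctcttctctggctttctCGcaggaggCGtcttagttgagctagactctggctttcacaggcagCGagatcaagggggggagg
The Tbx4 sequence held 8 CG dinucleotides and the Tbx3os1 sequence 14, against a median of 7 over 32851 promoters. As many or more were found in 48.6% of promoters for Tbx4 and 36.3% for Tbx3os1. The letters AGGTGTGA, a sequence bound by T-box proteins, were in neither of them on either strand, and in 1.28% of all promoters.

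The Tbx2-Tbx4 window lay mostly under islands. In the TCPOBOP livers islands covered 91.25, 95.75 and 74.25% of it, in order of replicate, and in the vehicle livers 100, 94.5 and 62.75%. Every liver was above 60%, and replicate 3 was the lowest of each treatment. The Tbx3-Tbx5 window was covered to 67.1, 73.3 and 50.8% in the TCPOBOP livers and to 87.6, 82.8 and 55.7% in the vehicle livers. Replicate 3 was again the lowest of each treatment. These 2 livers also had the shortest lists, covering 174 Mb with TCPOBOP and 196 Mb with vehicle, against 248 to 340 Mb for the others. With every list cut by score to 174 Mb, Tbx2-Tbx4 exceeded Tbx3-Tbx5 by 22.2 percentage points on average, against 16.9 points with full lists. This cut removes low-scoring islands. It left the Tbx2-Tbx4 mean at 86.4% and lowered the Tbx3-Tbx5 mean from 69.6 to 64.2%. It therefore does not separate list length from island score.

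Few stretches of the genome of that size were as covered. The mean over 6 livers was 86.4 ± 14.6% for the Tbx2-Tbx4 window and 69.6 ± 14.6% for the Tbx3-Tbx5 window (SD, n = 6). Of 15424 autosomal tiles of 160 kb, 37, or 0.240%, had a mean at or above that of Tbx2-Tbx4, and the median tile had 1.62%. Of 9135 tiles of 270 kb, 59, or 0.646%, reached the mean of Tbx3-Tbx5, with a median tile of 3.11%. In single lists, over 1100 bp included, 0.182 to 1.88% of tiles were at or above the Tbx2-Tbx4 window and 0.328 to 1.34% at or above the Tbx3-Tbx5 window.

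**Figure D1:**
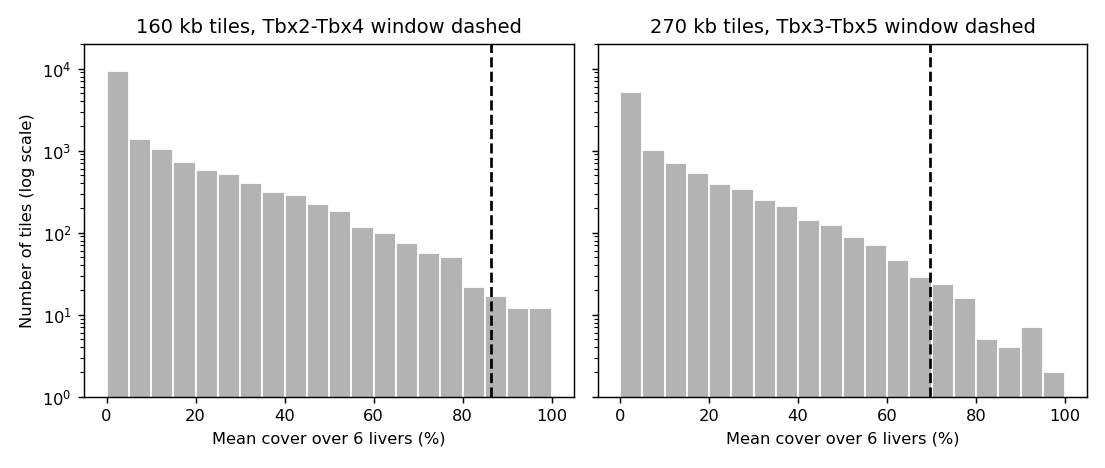
Number of autosomal tiles (log scale) by mean length under islands over 6 livers, in percent, for tiles of 160 kb on the left and 270 kb on the right. The dashed lines mark the Tbx2-Tbx4 window at 86.4% and the Tbx3-Tbx5 window at 69.6%, both in the sparse upper tail.

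The best island over each pair of genes was among the stronger ones of its list. By score, the best-ranked island over Tbx2-Tbx4 stood at 181 of 13759, 32 of 10197 and 222 of 6295 in the TCPOBOP livers, and at 13 of 10057, 37 of 14748 and 124 of 12430 in the vehicle livers. The best over Tbx3-Tbx5 stood at 324, 112 and 154 in the TCPOBOP livers and at 125, 498 and 438 in the vehicle livers, of the same totals. All of these lie in the top 3.53% of their list. Of all islands over the windows in the 6 lists, 17 of 21 at Tbx2-Tbx4 and 13 of 34 at Tbx3-Tbx5 were in the top 10% by score, and the weakest at Tbx3-Tbx5 stood at 13726 of 13759 in TCPOBOP replicate 1. The Tbx2-Tbx4 island ranked higher than the Tbx3-Tbx5 island in 5 of the 6 lists, TCPOBOP replicate 3 being the exception. Whole islands were ranked, flank parts included. In vehicle replicate 3 the island at 124 had 5.6 of its 53.6 kb inside the window. The best one wholly inside stood at 155. In TCPOBOP replicate 2 the island at 32 had 93.6 of its 136.4 kb inside. The best one wholly inside stood at 247, below the Tbx3-Tbx5 island at 112, itself wholly inside, so there the order turned. In vehicle replicate 1 the island at 13 had 160 of 298 kb inside, and none lay wholly inside. In vehicle replicate 2 the island at 37 had 45.2 of 118.8 kb inside, and the best one wholly inside stood at 185. Ranked by score per kb, the best Tbx2-Tbx4 island stood above the best Tbx3-Tbx5 island in 6 of 6 lists, at ranks 66 to 598 against 236 to 1896. Lists differ in length, so ranks are read only within a list.

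At Tbx2-Tbx4 the mark formed 1 broad block in most livers. In vehicle replicate 1 a single island of 298 kb, from 85543601 to 85841600 on chromosome 11, ran over the whole window and past both its edges. It was the 10th widest island of that list. The other livers held 3 to 5 islands over the window, with the widest at 47.2, 136.4 and 49.2 kb in the TCPOBOP livers and at 118.8 and 53.6 kb in vehicle replicates 2 and 3. Of the last 2, only 45.2 kb and 5.6 kb lay inside the window. Joined over gaps of up to 10 kb, the islands made 1 block of 285.2 to 298 kb in TCPOBOP replicates 1 and 2 and vehicle replicates 1 and 2. Replicate 3 broke into 2 blocks with TCPOBOP and 4 with vehicle. By the same rule Tbx3-Tbx5 had 1 block, of 250.8 and 253.2 kb, in vehicle replicates 1 and 2. It had 2 blocks in each TCPOBOP liver and 3 in vehicle replicate 3. The gap rule was chosen after seeing the islands.

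Within that window 83.6 kb, or 52.25%, lay under islands in all 6 livers, in 4 stretches, and 0 kb lay outside islands in all 6. The longest stretch covered 29.2 kb from 85635601 to 85664800. It also held the densest islands: those from 85635601 to 85666000 in TCPOBOP replicate 1 and to 85664800 in TCPOBOP replicate 3 both ranked 66th by score per kb. The island from 85630801 to 85665200 in vehicle replicate 3 ranked 188th. Its upper edge recurred: islands ended between 85664800 and 85666000 in 4 lists, TCPOBOP replicates 1 and 3 and vehicle replicates 2 and 3. Further stretches shared by all 6 livers ran from 85690001 to 85716000, from 85736401 to 85756800 and from 85768401 to 85776400.

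**Figure D2:**
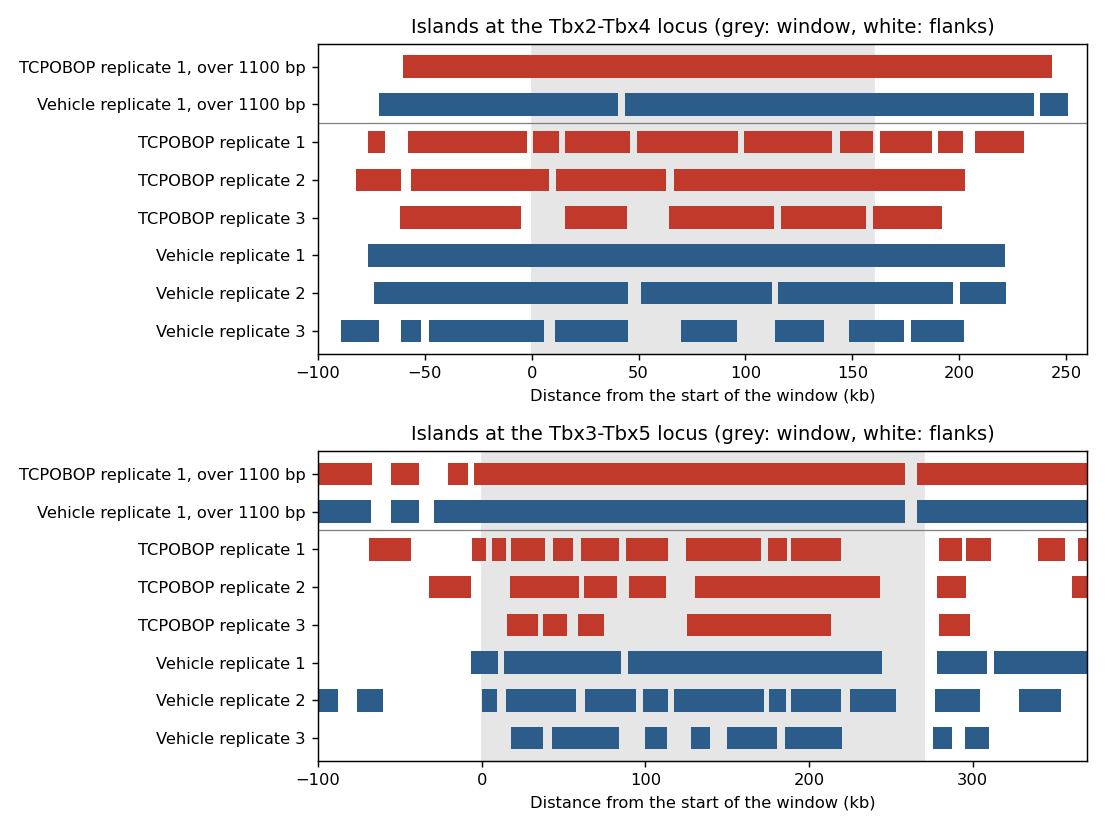
Islands in each of the 8 lists as bars along the locus, in kb from the start of the window, with the Tbx2-Tbx4 locus above and the Tbx3-Tbx5 locus below. Red is TCPOBOP and blue vehicle, the top pair of rows are the lists of fragments over 1100 bp, grey is the window and white the flanks. Tbx2-Tbx4 shows bars in both flanks in all 8 lists, and Tbx3-Tbx5 shows a shared gap near the upper window edge.

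At Tbx3-Tbx5 the window held 9, 4 and 4 islands in the TCPOBOP livers and 3, 8 and 6 in the vehicle livers. Per 100 kb of window the median over 6 livers was 2.19 islands at Tbx2-Tbx4 and 1.85 at Tbx3-Tbx5, and each locus had fewer in 3 of the livers. The widest spanned 45.6, 113.2 and 88.0 kb in the TCPOBOP livers and 155.2, 54.8 and 40.4 kb in the vehicle livers. By whole width the widest island was thus wider at Tbx2-Tbx4 in 5 of 6 livers. In TCPOBOP replicate 3 it had 49.2 kb there and 88.0 kb at Tbx3-Tbx5. In vehicle replicate 3 the 53.6 kb island at Tbx2-Tbx4 had only 5.6 kb inside the window. The widest one wholly inside had 34.4 kb, less than the 40.4 kb at Tbx3-Tbx5. In TCPOBOP replicate 2 the 136.4 kb island had 93.6 kb inside, less than the 113.2 kb at Tbx3-Tbx5. Counted inside the windows, Tbx2-Tbx4 stayed wider in TCPOBOP replicate 1, at 47.2 against 45.6 kb. It also did in vehicle replicate 1, at 160 against 155.2 kb, and vehicle replicate 2, at 61.2 against 54.8 kb. The longest stretch without an island was 50.4, 26.8 and 56.8 kb in the TCPOBOP livers and 25.6, 16.8 and 50 kb in the vehicle livers. In every liver the longest stretch at Tbx3-Tbx5 was the last one, bounded by the approximate upper end of the window, so its length depends on where that end was set. Between neighbouring islands over the windows, the longest gap at Tbx2-Tbx4 was 4.0, 3.6 and 19.2 kb in the TCPOBOP livers and 0, 6.0 and 24.8 kb in the vehicle livers. At Tbx3-Tbx5 it was 11.2, 17.6 and 50.8 kb in the TCPOBOP livers and 4.4, 5.2 and 16.4 kb in the vehicle livers. It was shorter at Tbx2-Tbx4 in 4 of 6 livers and longer in vehicle replicates 2 and 3.

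Of the Tbx3-Tbx5 window 97.2 kb, or 36.0%, lay under islands in all 6 livers, in 8 stretches of 0.8 to 24.0 kb. The longest, from 120279201 to 120303200 on chromosome 5, lay on the Tbx5 side of the window's midpoint by gene order. An island with the same start and end, 120279201 and 120309600, was listed in TCPOBOP replicate 1 and vehicle replicate 2. The next were 20.8 kb from 120239601 to 120260400 and, on the Tbx3 side, 16.8 kb from 120107601 to 120124400. An edge recurred in this window too. Islands ended between 120202400 and 120204000 in 4 lists, TCPOBOP replicates 1 and 2 and vehicle replicates 2 and 3. A stretch of 22.4 kb across the upper window edge, from 120343201 to 120365600, held no island in any of the 6 livers. Both lists of over 1100 bp shared a gap of 7.2 kb inside it, from 120348401 to 120355600. Beyond it islands resumed in all 6 livers, starting between 120368401 and 120369201 in 3 TCPOBOP livers and 1 vehicle liver.

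Island edges recurred between livers at both loci and over the genome, with no test made. Of 33 island edges in the Tbx2-Tbx4 window, 36.4% had an edge of the same side within 800 bp in at least 1 other liver, and of 66 in the Tbx3-Tbx5 window 47.0%. Over the autosomes the share was 39.2% of 134754 edges. For edges matched in at least 3 other livers the shares were 6.06%, 1.52% and 5.54%. The edges given above as recurring in 4 lists were joined in steps of up to 800 bp, so they spanned up to 1.6 kb.

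Both windows were more covered than their flanks. The Tbx2-Tbx4 window averaged 86.4% and its flanks 59.7%, a difference of 26.7 ± 10.7 percentage points (SD, n = 6), positive in 6 of 6 livers (exact sign-flip permutation p = 0.031, two-sided, the smallest possible). The Tbx3-Tbx5 window averaged 69.6% and its flanks 29.6%, a difference of 40.0 ± 7.34 points (SD, n = 6), also in 6 of 6 livers (exact sign-flip permutation p = 0.031). With flanks of 50 kb the Tbx2-Tbx4 difference was -3.65 points (exact p = 0.688), since the nearer flanks were covered to 90.1%. With the window narrowed by 20 kb on each side it was 12.8 points (exact p = 0.0625). The Tbx3-Tbx5 difference stayed at 36.1 points with flanks of 50 kb. These p-values address only whether a difference repeats from liver to liver at fixed places.

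Islands reached past both edges of the Tbx2-Tbx4 window, and how far depended on the list. On the side of Bcas3, the Tbx2-Tbx4 flank was 63.2, 77.6 and 56.8% covered in the TCPOBOP livers and 76.4, 73.6 and 75.2% in the vehicle livers. All 6 livers shared a stretch of 43.2 kb there, from 85572001 to 85615200, the longest shared stretch of the locus. The opposite flank, on the side of Brip1, was 59.2, 42.8 and 32.0% covered in the TCPOBOP livers and 61.6, 58.8 and 39.2% in the vehicle livers. From 85850401 to the end of that flank 0 of the 6 livers held an island. On this side islands reached further in the lists of over 1100 bp, to 85863600 with TCPOBOP and to 85870800 with vehicle. On the side of Bcas3 those lists covered less than the lists of 600 to 1100 bp of the same samples. The values there were 60.0 against 63.2% with TCPOBOP and 71.6 against 76.4% with vehicle.

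Around Tbx3-Tbx5 the flanks were uneven. The lower flank, on the side of Med13l, was 31.6, 25.2 and 0% covered in the TCPOBOP livers and 6.4, 28.0 and 0% in the vehicle livers. It shared no stretch among all 6 livers. The upper flank, on the side of Rbm19, was 51.2, 27.2 and 19.2% covered in the TCPOBOP livers and 86.8, 52.8 and 26.4% in the vehicle livers. Livers of both treatments overlapped in each of these flanks.

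**Figure D3:**
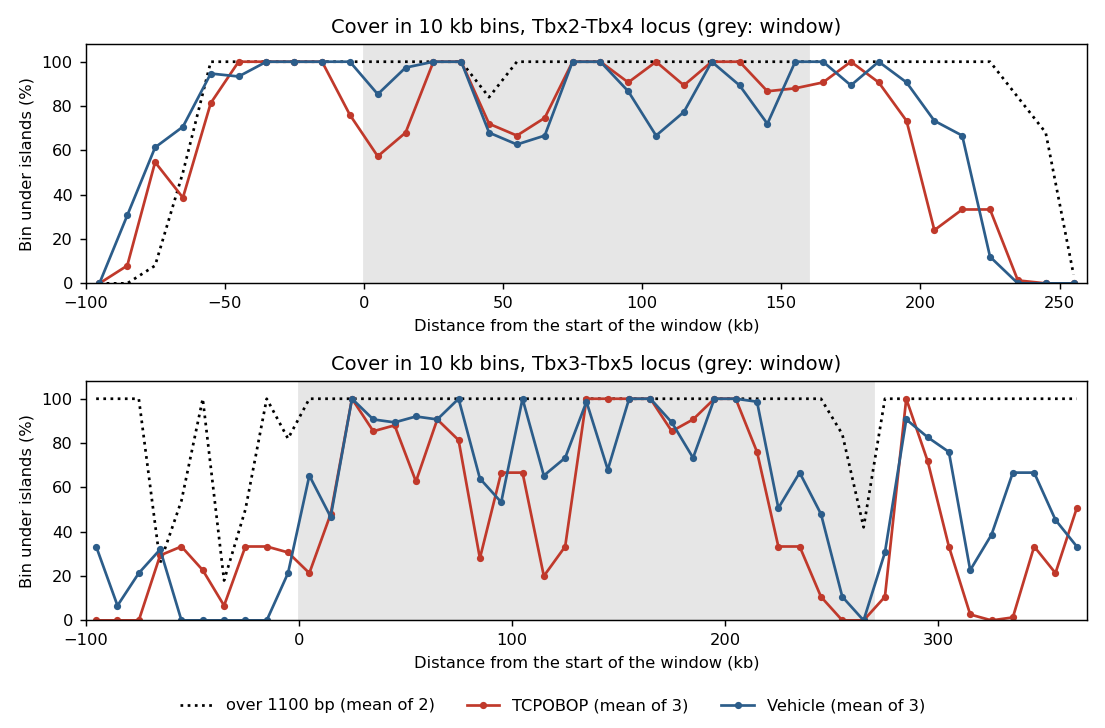
Percent of each 10 kb bin under islands against distance from the start of the window in kb, for Tbx2-Tbx4 above and Tbx3-Tbx5 below. Lines are means of 3 TCPOBOP livers (red), of 3 vehicle livers (blue) and of the 2 lists of over 1100 bp (dotted), and grey is the window. Cover at Tbx2-Tbx4 stays high past both window edges, while at Tbx3-Tbx5 it reaches 0% in the livers' bins at the upper edge.

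Set against each other within a liver, the Tbx2-Tbx4 window was more covered than the Tbx3-Tbx5 window in 6 of 6 livers. The difference was 16.9 ± 7.34 percentage points (SD, n = 6, exact sign-flip permutation p = 0.031, two-sided, the smallest possible). It ranged from 7.05 points in vehicle replicate 3 to 24.1 points in TCPOBOP replicate 1. The size depended on where the windows end, and in vehicle replicate 3 so did the order. With the central 160 kb of the Tbx3-Tbx5 window, chosen after seeing the data, the means were 86.4% and 81.1%, a difference of 5.29 points (exact p = 0.156). With both windows narrowed by 20 kb on each side it was 10.5 points (exact p = 0.0625). In vehicle replicate 3 Tbx2-Tbx4 fell below Tbx3-Tbx5, at 62.75 against 71.25% with the central 160 kb and 61.7 against 64.3% with narrowed windows. These p-values address only whether the order repeats from liver to liver at 2 fixed places. They do not say how unusual that order is among stretches of the genome.

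With fragments over 1100 bp both windows were nearly closed. The Tbx2-Tbx4 window was 100% covered in the TCPOBOP liver and 98.0% in the vehicle liver, and the Tbx3-Tbx5 window 97.2% in the TCPOBOP liver and 97.3% in the vehicle liver. Libraries of 600 to 1100 bp made from these same samples gave 91.25% for TCPOBOP and 100% for vehicle at Tbx2-Tbx4, and at Tbx3-Tbx5 67.1% for TCPOBOP and 87.6% for vehicle. Islands of 600 to 1100 bp in these windows lay 98 to 100% inside those of over 1100 bp. Since the latter covered 97.2 to 100% of the windows, a share this high was nearly fixed in advance. In the lists of over 1100 bp the order of the pairs by score turned round. Islands of 263.2 kb (120085201 to 120348400) and 287.6 kb (120060801 to 120348400) over Tbx3-Tbx5 ranked 27 of 22077 in the TCPOBOP list and 22 of 17577 in the vehicle list. The best islands over Tbx2-Tbx4, of 303.6 and 191.2 kb, ranked 39 in the TCPOBOP list and 105 in the vehicle list. The lists of over 1100 bp cover more of the genome, so fragment class and amount of island cannot be told apart, and with 1 pair per treatment no test was made.

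Beyond the window, the lists of over 1100 bp extended the Tbx3-Tbx5 cover more than the Tbx2-Tbx4 cover. Above the 7.2 kb gap an island of 209.2 kb followed in both, from 120356001 to 120565200 in the TCPOBOP list and from 120355601 to 120564800 in the vehicle list. In the vehicle sample the lower flank was 78.8% covered with fragments over 1100 bp and 6.4% with 600 to 1100 bp, and the upper flank 100% and 86.8%. In the TCPOBOP sample the lower flank was 67.2% covered with fragments over 1100 bp and 31.6% with 600 to 1100 bp, and the upper flank 100% and 51.2%. Together the Tbx3-Tbx5 flanks were 83.6% covered for TCPOBOP and 89.4% for vehicle, while with fragments of 600 to 1100 bp they were 41.4% covered for TCPOBOP and 46.6% for vehicle. The Tbx2-Tbx4 flanks were 71.8% covered for TCPOBOP and 79.6% for vehicle, while with fragments of 600 to 1100 bp they were 61.2% covered for TCPOBOP and 69.0% for vehicle.

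The treatment comparison asked whether TCPOBOP changed H3K27me3 cover of these genes within 3 h, and at neither window did the treatments separate. Tbx2-Tbx4 averaged 87.1 ± 11.3% in TCPOBOP livers and 85.8 ± 20.1% in vehicle livers (SD, n = 3 each). They differed by 1.33 percentage points (exact permutation p = 0.9, two-sided). Tbx3-Tbx5 averaged 63.8 ± 11.6% in TCPOBOP livers and 75.4 ± 17.2% in vehicle livers (SD, n = 3 each), a difference of -11.6 points (exact permutation p = 0.4). Both differences were smaller than the spread between vehicle livers. At Tbx2-Tbx4 the difference turned to -10.2 points without vehicle replicate 3, -3.00 without TCPOBOP replicate 2 and -0.75 without TCPOBOP replicate 1. At Tbx3-Tbx5 the difference was -21.4 points without vehicle replicate 3, -5.14 without TCPOBOP replicate 3, -5.51 without vehicle replicate 1 and -7.88 without vehicle replicate 2. With 3 livers against 3 the smallest p is 0.1, so no such test could pass 0.05, and lack of a call does not show equal cover.

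**Figure D4:**
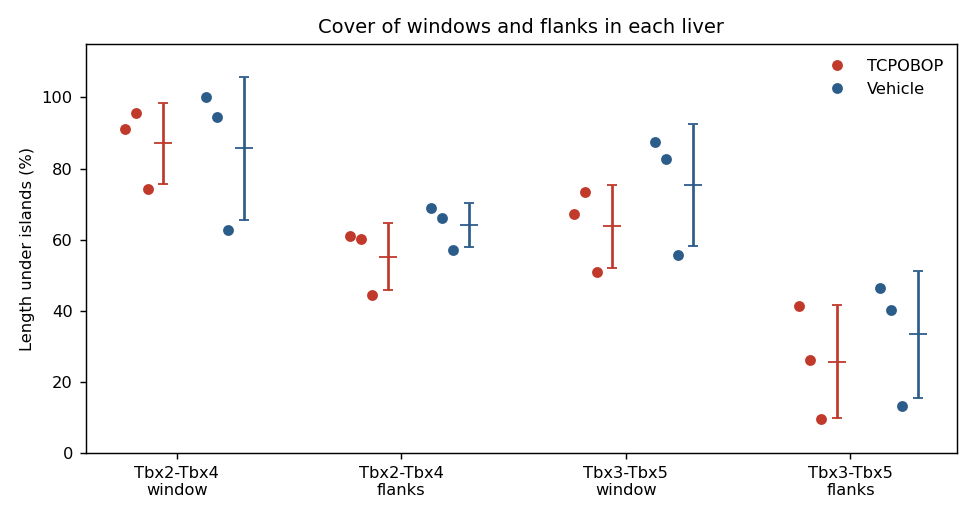
Percent of length under islands in the windows and the summed flanks of both loci, 1 point per liver, with TCPOBOP in red left of vehicle in blue and bars for the mean ± SD (n = 3). Points of the treatments overlap in all 4 columns, and windows sit above their flanks.

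Livers fell into sets of 3 by the lowest score their list holds, 71.0 to 84.6 in TCPOBOP replicates 2 and 3 and vehicle replicate 1, and 41.0 to 48.3 in the others. Among the first set Tbx2-Tbx4 was 95.75 and 74.25% covered with TCPOBOP and 100% with vehicle. Among the second it was 91.25% with TCPOBOP and 94.5 and 62.75% with vehicle. Tbx3-Tbx5 was 73.3 and 50.8% covered with TCPOBOP and 87.6% with vehicle in the first set, and 67.1% with TCPOBOP and 82.8 and 55.7% with vehicle in the second.

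The difference between the pairs, unlike either window, did not overlap between treatments. Tbx2-Tbx4 exceeded Tbx3-Tbx5 by 24.1, 22.4 and 23.4 percentage points in the TCPOBOP livers and by 12.4, 11.7 and 7.05 points in the vehicle livers. The means were 23.3 ± 0.866 points in TCPOBOP livers and 10.4 ± 2.92 points in vehicle livers (SD, n = 3 each), a difference of 12.9 points (exact permutation p = 0.1, the smallest possible). As background, the same separation in this direction occurred in 3.79% of 189508 pairs of a 160 kb and a 270 kb tile with a mean cover of 50% or more, and the opposite in 3.94%. For windows taken alone, TCPOBOP livers lay above vehicle livers without overlap in 1.37% of 8611 tiles of 160 kb that held an island, and below them in 4.09%. For tiles of 270 kb the shares were 1.17% and 4.37% of 5902. Among tiles with a mean cover of 50% or more, the shares were 0.462% above and 4.47% below for 649 tiles of 160 kb. For 292 such tiles of 270 kb they were 0% and 3.08%. With the libraries of a ChIP sample merged the difference was 9.09 points (exact permutation p = 0.3). With the central 160 kb it was 10.1 points, with 10.3 points in TCPOBOP livers and 0.25 points in vehicle livers. Cover cannot exceed 100%, which bounds the difference between the pairs. Tbx2-Tbx4 was at 100% in vehicle replicate 1, 94.5% in vehicle replicate 2 and 95.75% in TCPOBOP replicate 2. The part of this limit in the separation was not tested.

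**Figure D5:**
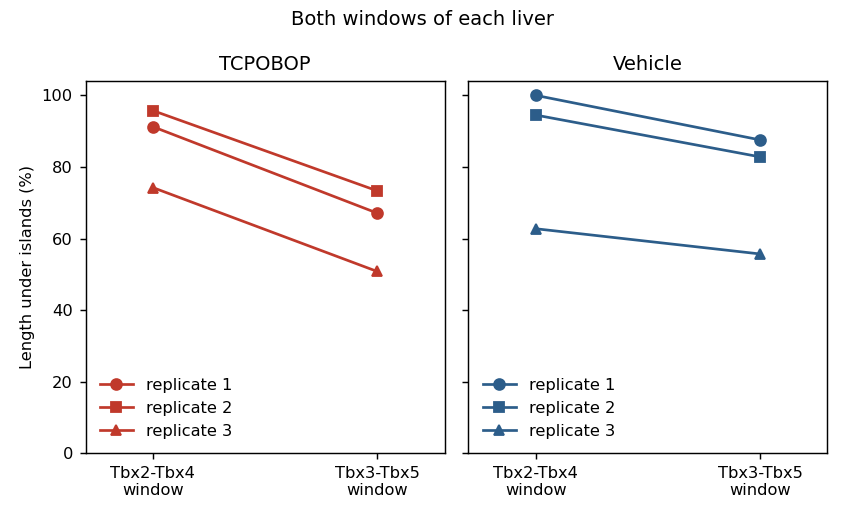
Percent of the Tbx2-Tbx4 and Tbx3-Tbx5 windows under islands, joined by a line for each liver, with TCPOBOP on the left and vehicle on the right. The Tbx2-Tbx4 end is higher in all 6 lines, by 22.4 to 24.1 points with TCPOBOP and by 7.05 to 12.4 points with vehicle.

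By position, the lower Tbx3-Tbx5 window, on the Tbx3 side of its midpoint, was 76.9, 66.5 and 43.7% covered in the TCPOBOP livers and 94.1, 86.7 and 59.4% in the vehicle livers. The upper part, on the Tbx5 side, was 57.3, 80.1 and 57.9% covered in the TCPOBOP livers and 81.0, 79.0 and 52.0% in the vehicle livers. On the Tbx2 side of the other window the values were 91.5, 91.5 and 56.5% in the TCPOBOP livers and 100, 92.5 and 62.5% in the vehicle livers. On the Tbx4 side they were 91.0, 100 and 92.0% in the TCPOBOP livers and 100, 96.5 and 63.0% in the vehicle livers. Treatments overlapped in each of the 4 parts. No stretch of either window lay under islands in 3 livers of a treatment and in 0 of the other. With no share of such stretches over the genome beside it, this says nothing of the treatment.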

How the data were processed

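H3K27me3 ChIP-seq of 6 livers gave 8 lists, 1 per library. Per the submitters' processing notes, Bowtie2 2.3.2, SICER 1.1 and mm9 were used, without roles. The deposited value is the authors' score of each island against a modelled background; per the file names, the caller's window was 400 bp and its gap 2400 bp. Whether an input was used: not given in the sources used here. Islands were called per library, and scores served only for ranks and minimums. Coordinates are 1-based.

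Cover is the percent of a window under islands, computed with Python 3.11.15, numpy 2.4.6 and pandas 2.3.3, and figures were drawn with matplotlib 3.10.9. Exact permutation tests (two-sided) over 20 labellings compared treatments, and exact sign-flip tests over 64 patterns compared windows within livers. Tiles start at each chromosome's first base and end before its last island. Cover and tile counts were tested on simulated data. The 4 members are all named, with their protein-coding neighbours; every island over a window was eligible. Windows, lists and tests were chosen with earlier results of these data known. Other T-box genes were not analysed here. Alternatives were a score minimum of 102, lists cut by score to 174 Mb, merged ChIP samples, other window and flank sizes, and leaving out each liver. Depth is unknown, so no counting interval is given.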

Additional observations from a re-analysis of the deposited data

How the results depend on the processing

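The Tbx2-Tbx4 treatment difference, 1.33 points, became -1.17 with the score minimum, -0.0667 with windows widened by 20 kb, -15.0 among the 3 libraries with the higher lowest score, and -10.2 to 8.46 with 1 liver left out, negative at -0.750, -3.00 and -10.2 without TCPOBOP replicates 1 and 2 and vehicle replicate 3; the cause was not tested. Tbx3-Tbx5 stayed negative, at -25.5 to -2.15 over these alternatives and -21.4 to -5.14 with 1 liver left out. The difference between the pairs by treatment was 9.01 to 17.6, and 11.3 to 14.0 with 1 liver left out. Window minus flanks at Tbx2-Tbx4 was -3.65 with flanks of 50 kb and 12.8 with the narrowed window. The pair difference was 10.5 with narrowed windows and 5.29 with the central 160 kb; otherwise it was 11.7 to 22.3. With 5 livers the smallest sign-flip p is 0.0625, so those tests could not pass 0.05. They gave 15.4 to 18.8 for the pairs, 24.95 to 30.95 for the Tbx2-Tbx4 flanks and 38.6 to 42.8 for the Tbx3-Tbx5 flanks. Cover shared by all livers at Tbx3-Tbx5, 36.0%, was 22.8% with the score minimum and 56.6% in at least 5 of 6 lists. The central 160 kb and the split by lowest score were chosen after seeing the data. Unknown depth limits all of these values.

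Same-numbered livers' deviations over 160 kb tiles correlated at 0.0977 to 0.476, not every one over 0.1, and the labels name no shared animal or day, so the numbers were not taken as pairs; as a hint from the data, 4 of 6 livers correlated best with their own number. With the replicate block the differences stayed at 1.33, -11.6 and 12.9 points, at exact p of 0.75, 0.25 and 0.25, where 0.25 is the smallest possible; no call changed.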
